A study of Mus musculus with 6 samples.

Results

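The genes described here encode the proteins of the mitochondrial ribosome. They were taken by name, as the protein-coding genes of the RefSeq annotation GRCm38.p6 whose symbol is Mrpl or Mrps followed by a digit. This gave 78 of 21887 coding genes, 49 named for the large subunit (Mrpl) and 29 for the small subunit (Mrps). For each, the lists of c-Myc peaks were searched for a summit (the base with the highest coverage in a peak) within 1000 bp of either end of the gene or inside the gene. Such a gene is called below a gene with a summit, and where it had several, the summit with the highest fold was taken. Values of the lines given together are always in the order PB115, PB119, PB120 unless lines are named.

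The study mapped c-Myc by chromatin immunoprecipitation and sequencing (ChIP-seq) in 3 lines of mouse lung cancer cells, called PB115, PB119 and PB120. Each line gave 1 c-Myc ChIP library, made with the antibody D3N8F, and 1 input library of sonicated chromatin without antibody. The labels give no genotype, treatment or age for any line. No line had a replicate, so no difference between lines could be tested, and intervals below cover the counting of fragments only.

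The mitochondrial ribosome translates the few proteins still encoded by mitochondrial DNA, all of them subunits of the respiratory chain and ATP synthase. Its own proteins are encoded in the nucleus, made in the cytosol and imported. Some descend from bacterial ribosomal proteins, such as the decoding-centre protein Mrps12 and the stalk proteins Mrpl10 and Mrpl12, and others are found only in mitochondria. c-Myc pairs with Max to bind DNA, most tightly at the E-box CACGTG and less tightly at close variants, and genes for ribosomal and mitochondrial proteins are long known among its targets.

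The promoters of 5 of these genes show the sites that the results refer to. The sequences are the 250 bases before a listed start of the gene in RefSeq GRCm38.p6 (at Mrpl45 a start inside the annotated gene, which begins at 97314923), read 5′ to 3′ on the strand of the gene, with E-box forms in capitals. These are CACGTG and its variants, namely CACGCG and also CATGTG, on either strand (CGCGTG stands for CACGCG on the other strand). Mrpl43 was the gene with the highest rank over the lines, Mrpl39 and Mrpl45 had an E-box form within 50 bp of the summit in every line, Mrps18b was the leading small subunit gene, and Mrps22 had no summit in any line. The windows are chr19:45006443-45006692 on the minus strand (Mrpl43), chr16:84735245-84735494 on the minus strand (Mrpl39), chr11:97315466-97315715 on the plus strand (Mrpl45), chr17:35916441-35916690 on the minus strand (Mrps18b) and chr9:98601680-98601929 on the minus strand (Mrps22).
Mrpl43: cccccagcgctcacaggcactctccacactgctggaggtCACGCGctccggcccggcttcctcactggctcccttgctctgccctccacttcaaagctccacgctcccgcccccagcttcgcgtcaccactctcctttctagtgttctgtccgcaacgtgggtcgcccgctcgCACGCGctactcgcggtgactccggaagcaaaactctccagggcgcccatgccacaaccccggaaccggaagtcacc
Mrpl39: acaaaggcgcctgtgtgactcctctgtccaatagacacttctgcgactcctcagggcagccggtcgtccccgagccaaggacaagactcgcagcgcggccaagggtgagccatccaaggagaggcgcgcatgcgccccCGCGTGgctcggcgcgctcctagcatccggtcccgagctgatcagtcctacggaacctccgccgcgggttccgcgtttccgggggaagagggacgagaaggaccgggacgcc
Mrpl45: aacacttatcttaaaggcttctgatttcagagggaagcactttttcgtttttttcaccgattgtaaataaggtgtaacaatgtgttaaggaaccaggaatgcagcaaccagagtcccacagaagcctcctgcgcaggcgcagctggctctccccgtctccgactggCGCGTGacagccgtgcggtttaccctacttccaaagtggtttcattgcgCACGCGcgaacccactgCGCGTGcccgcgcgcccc
Mrps18b: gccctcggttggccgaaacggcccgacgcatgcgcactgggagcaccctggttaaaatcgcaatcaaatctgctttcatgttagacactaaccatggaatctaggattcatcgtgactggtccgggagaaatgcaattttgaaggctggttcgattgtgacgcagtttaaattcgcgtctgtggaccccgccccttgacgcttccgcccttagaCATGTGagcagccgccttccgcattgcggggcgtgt
Mrps22: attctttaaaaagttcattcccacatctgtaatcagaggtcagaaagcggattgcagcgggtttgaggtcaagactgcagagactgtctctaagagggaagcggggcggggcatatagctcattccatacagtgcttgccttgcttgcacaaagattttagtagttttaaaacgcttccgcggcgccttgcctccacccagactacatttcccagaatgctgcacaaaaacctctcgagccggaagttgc

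Most genes of the mitochondrial ribosome carried a c-Myc summit. One was found at 56 of the 78 genes (71.8%) in PB115, while PB119 had 71 (91.0%) and PB120 had 39 (50%). Over all 21887 coding genes the shares were 28.8%, 42.2% and 20.1%. All 3 lines had a summit at 34 of the genes (43.6%), against 17.5% of all coding genes. These genes were short, with a median length of 7690 bp against 17169 bp over all coding genes. The part of gene length in these shares was not tested. Counting only summits within 1000 bp of an end left 52, 66 and 34 genes (66.7%, 84.6% and 43.6%), against 23.6%, 35.3% and 16.4% of all coding genes.

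The lines differed in list length as well as in these genes. The lists held 7830, 13527 and 5168 peaks, from 40494386, 40726886 and 32299364 ChIP tags. The weakest listed summits rested on 24, 19 and 21 fragments. A gene without a summit had no listed summit within 1000 bp of an end or inside it, which is not a measurement of absent c-Myc. With each list reduced to its 5168 peaks of lowest p, 47, 48 and 39 of the genes had a summit, against 20.9%, 22.1% and 20.1% of all coding genes. At equal list length PB115 and PB119 thus held nearly the same number of these genes.

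The gene sets of the lines were nested. Every one of the 56 genes with a summit in PB115 and of the 39 in PB120 also had one in PB119. No gene had a summit in PB115 alone, in PB120 alone or in those lines without PB119. Over all coding genes these patterns were also rare, at 0.178%, 0.535% and 0.0548%. PB119 alone had a summit at 10 genes (12.8%, near the 11.6% of all coding genes), PB115 and PB119 at 22 (28.2% against 11.1%), and PB119 and PB120 at 5 (6.41% against 2.02%). When peaks that overlapped by 1 bp or more were merged, the summits of these genes fell in 84 regions, of which 34 held a peak of every line, 25 of PB115 and PB119, 5 of PB119 and PB120, and 20 of PB119 alone. With a reciprocal overlap of 50% required, 16 in place of 34 regions were shared by every line. These region counts have no counterpart here over all coding genes. By gene, the best peaks of the lines fell in 1 region at 33 of the 34 genes with a summit in every line. The same was so at 3289 of 3833 coding genes with a summit in every line.

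**Figure D1:**
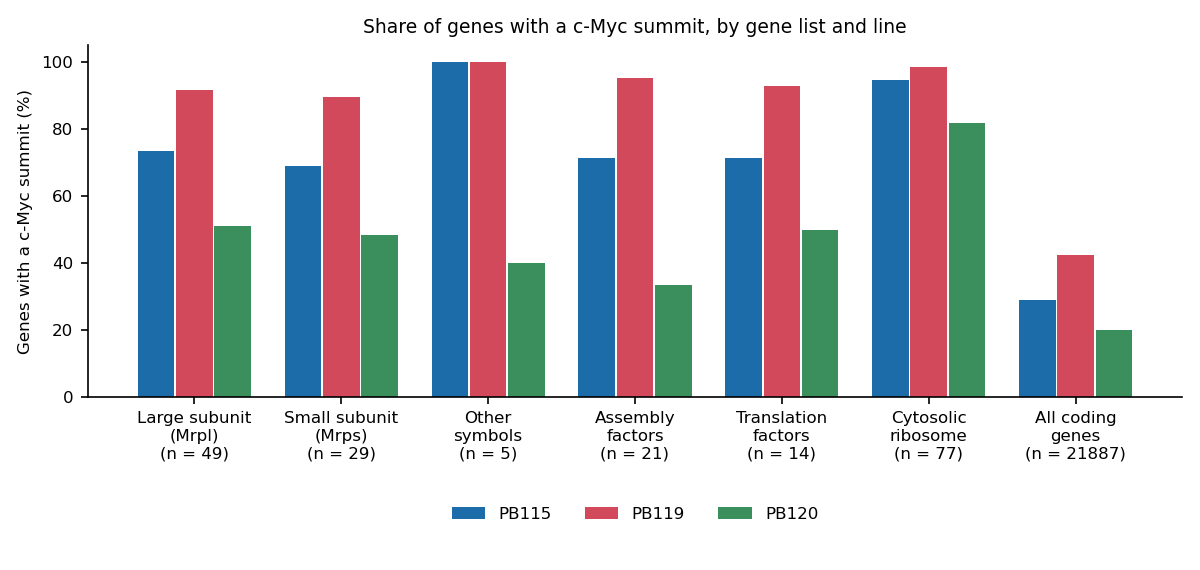
Share of genes (percent) that had a summit at most 1000 bp from an end or in the gene body, by line. Bars show the large and the small subunit genes, related gene lists and all coding genes. The 78 mitochondrial ribosomal protein genes stood at 71.8%, 91.0% and 50%, above all coding genes and, in each line, below the cytosolic ribosomal protein genes.

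In the full lists, the large and the small subunit had summits at nearly equal shares of their genes. Of the 49 large subunit genes, 36 (73.5%), 45 (91.8%) and 25 (51.0%) had a summit. Of the 29 small subunit genes, 20 (69.0%), 26 (89.7%) and 14 (48.3%) did. A summit in every line was found at 21 large subunit genes (42.9%) and 13 small subunit genes (44.8%). The shares differed by less than 5 percentage points in each line, and no test was made, since genes of a list are not replicates. The gap was wider in most of the shortened lists, but not in all. At equal list length the shares were 65.3% of large and 51.7% of small subunit genes in PB115, and 65.3% and 55.2% (32 and 16 genes) in PB119. At a p of 1e-20 they were 65.3% and 55.2% in PB115, and 42.9% and 20.7% (21 and 6 genes) in PB120. In PB119 they were 83.7% and 82.8% at that p, closer than in the full list.

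The fold at the summit was similar between subunits in PB115 and PB120 and higher for the large subunit in PB119. The fold is the authors' value for a peak, fragment coverage at the summit over the local input background with 1 added to each. The median fold at large subunit genes with a summit was 11.1, 15.2 and 9.12. At small subunit genes it was 10.7, 11.4 and 8.77, and at all coding genes 10.4, 11.6 and 9.27. Median fragments at the summit were higher for the large subunit in every line, at 65.5, 62 and 45 against 54.5, 52.5 and 35. So was the median local background relative to the genome-wide level, at 1.865, 1.55 and 2.078 against 1.622, 1.475 and 1.553. Folds of different lists do not share a scale, so each gene was also ranked by the share of all coding genes with a summit in the same line that had an equal or lower fold. The median percentile was 57.0, 70.4 and 47.3 for the large subunit and 53.9, 48.3 and 42.3 for the small subunit. In PB119, 30 of 45 large subunit genes and 12 of 26 small subunit genes lay above the middle of the coding genes. The ranges overlapped widely, from a fold of 5.81 to 36.9 in PB119 for the large subunit and from 6.26 to 23.4 for the small subunit.

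**Figure D2:**
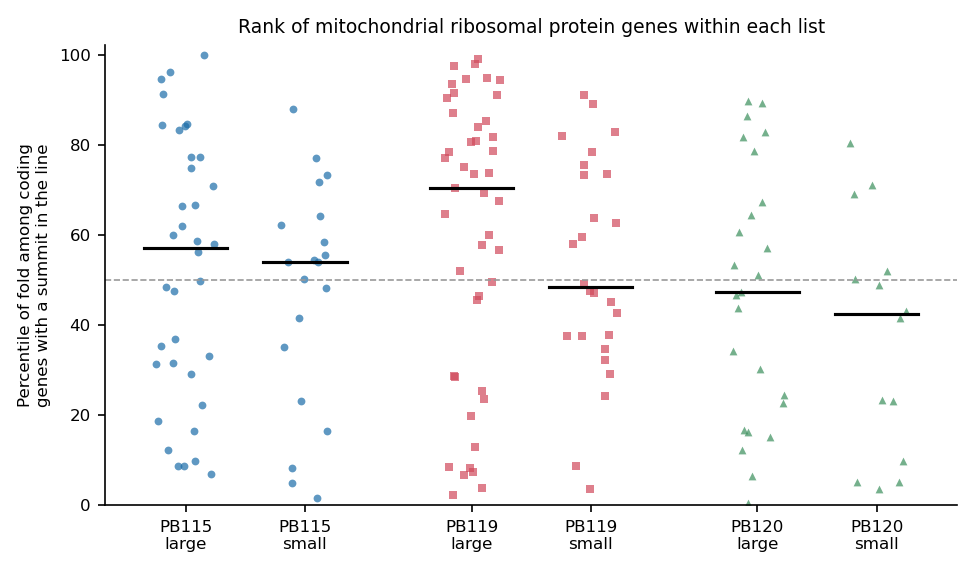
Percentile of the best fold of each gene among all coding genes with a summit in the same line, for large and small subunit genes. In PB119 the large subunit had a median of 70.4 and the small subunit one of 48.3, with wide overlap, and in PB120 both medians lay below 50.

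Names do not follow structure at 3 genes. Mrps30 and Mrps18a encode proteins that sit in the large subunit of the mammalian mitochondrial ribosome, and the product of Mrps36 is a subunit of the oxoglutarate dehydrogenase complex. Mrps18a and Mrps36 had a summit in every line, and Mrps30 in PB115 and PB119. Placed by structure, 38, 47 and 26 of 51 large subunit genes and 17, 23 and 12 of 26 small subunit genes had a summit. The order of the subunits was the same in each line.

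Genes listed as of bacterial ribosomal type and genes listed as specific to the mitochondrial ribosome had summits at similar shares. Of the 78 genes, 4 were in neither list (Mrpl55, Mrps18a, Mrps30 and Mrps36). Of 45 genes listed with counterparts in the bacterial ribosome, 32, 42 and 21 had a summit. Of 29 genes listed as specific to the mitochondrial ribosome, 20, 25 and 16 did. Their median percentiles were 52.1, 63.2 and 30.1 for the bacterial type and 57.4, 67.6 and 51.6 for the mitochondrial type. Pooled over the subunits, the mitochondrial type had the higher median rank in each line, but within the small subunit in PB119 the order was the reverse, at 52.7 against 59.4.

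The genes at the top of the ranking were mostly large subunit genes, 10 of 12. Mrpl43 led, with a product found only in mitochondrial ribosomes. Its summit rested on 121, 159 and 75 fragments, with folds of 21.5, 33.0 and 14.95. Per 10000000 ChIP tags this was 29.9 fragments (95% exact Poisson interval 24.8 to 35.7), 39.0 (33.2 to 45.6) and 23.2 (18.3 to 29.1). The fold stood at percentile 94.6, 98.0 and 89.6 of the coding genes with a summit, and the summits of the 3 lines lay 84 to 100 bp before the start. PB119 had the most fragments per tag, PB120 the fewest. Both E-box variants CACGCG printed above for Mrpl43 lay before the start, and the nearer one was 20, 10 and 26 bp from the summit.

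Mrpl23, whose bacterial counterpart lines the exit of the peptide tunnel, had the highest fold of the 78 genes in both PB115 (39.0) and PB119 (36.9). In PB120 its fold was 10.7. It had 146, 157 and 65 fragments. Its local background, relative to the genome-wide level, was 1.03, 1.51 and 2.77, so fewer fragments and a higher background went together in PB120. The summits lay 420 to 449 bp after the nearest listed start, and 985, 994 and 1014 bp from the outer end of the gene, so the PB120 summit counted as inside the gene only.

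Mrpl18, a relative of the bacterial protein that holds 5S rRNA, had 114, 114 and 50 fragments and folds of 22.9, 26.7 and 12.8. PB115 and PB119 were level and PB120 lower. Its summit lay inside the annotated gene, over 1000 bp from both ends, so that counting ends only left no summit in PB115 or PB120 and one of fold 6.80 in PB119. It was also within 1000 bp of Tcp1, which encodes a subunit of the cytosolic chaperonin. Mrpl12, whose bacterial counterpart forms the flexible stalk that calls in translation factors, had 117, 139 and 42 fragments and folds of 19.0, 31.4 and 7.002. It stood at percentile 91.3 and 97.5 in PB115 and PB119 and at 15.05 in PB120, the widest spread among the 12 leading genes.

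Mrpl17 and Mrpl20, with bacterial counterparts in the large subunit, were closer to each other across lines. Mrpl17 had 82, 89 and 51 fragments with folds of 16.0, 21.1 and 13.1, and Mrpl20 had 79, 104 and 70 with folds of 14.1, 23.9 and 13.97. Mrpl44, a protein with an RNase III-like fold, had 86, 107 and 58 fragments with folds of 12.3, 20.2 and 14.8. Each of these genes had its highest fold in PB119. Mrpl54 had 91, 119 and 34 fragments with folds of 16.0, 27.3 and 9.51, and its percentile was 84.1, 94.9 and 53.2.

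Mrpl45 and Mrpl39 kept their fragments in PB120. Mrpl45, which sits at the tunnel exit and attaches the ribosome to the inner membrane, had 72, 91 and 75 fragments with folds of 10.3, 23.3 and 10.4. Its local background was 2.47, 1.35 and 3.41 times the genome-wide level, so its fold was highest where the background was lowest. Mrpl39, related to threonyl-tRNA synthetase, had 57, 72 and 51 fragments with folds of 10.2, 18.4 and 12.3. The summits of Mrpl45 lay within 5 bp of the inner start used for the printed window, 788 to 794 bp inside the annotated gene, and 10 to 16 bp from the CACGCG form next to that start. At Mrpl39 the single CACGCG form was 48, 35 and 43 bp from the summit.

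Of the small subunit genes, Mrps18b and Mrps33 were among the 12. Mrps18b had 88, 100 and 80 fragments with folds of 17.3, 22.1 and 11.0. Scaled to 10000000 tags these were 21.7, 24.6 and 24.8 fragments, so the lower fold in PB120 came with an equal count and a background of 3.46 times the genome-wide level, against 1.63 and 1.64. Mrps33 had 55, 57 and 36 fragments with folds of 13.1, 15.9 and 11.2, and its percentile stayed between 71.1 and 73.5. Its summits lay 3 to 5 bp from the start in all 3 lines.

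**Figure D3:**
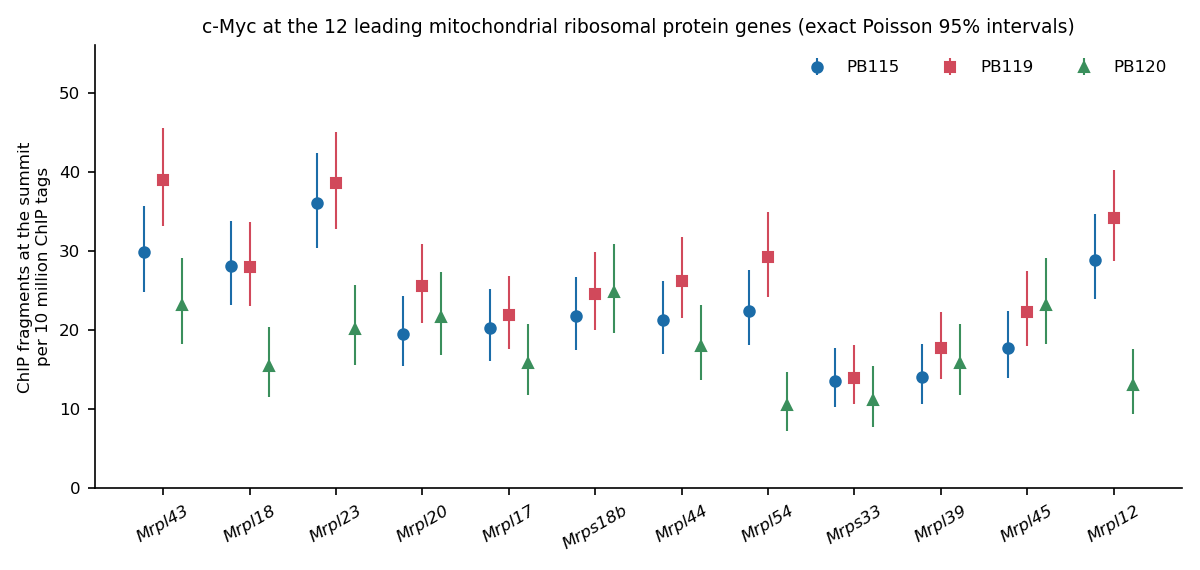
ChIP fragments at the best summit per 10000000 ChIP tags for the 12 leading genes, by line, with exact 95% Poisson intervals that cover counting error only. At Mrpl43, Mrpl23, Mrpl18, Mrpl44, Mrpl54 and Mrpl12 the interval of the ratio of PB120 to PB119 lay below 1. At Mrpl20, Mrpl17, Mrps18b, Mrps33, Mrpl39 and Mrpl45 that interval held 1.

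The remaining genes with a summit in every line were Mrpl2, Mrpl11, Mrpl16, Mrpl30, Mrpl34, Mrpl47, Mrpl48, Mrpl49, Mrpl51, Mrpl52 and Mrpl57, and Mrps2, Mrps7, Mrps12, Mrps14, Mrps15, Mrps16, Mrps18a, Mrps23, Mrps24, Mrps27 and Mrps36. They covered much of the range of folds. Mrps7, which binds rRNA in the head of the small subunit, had 79, 107 and 35 fragments with folds of 11.3, 23.4 and 5.87. Mrps12, part of the decoding centre, had 39, 53 and 35 fragments with folds of 5.67, 13.6 and 5.87. Mrps16, also of bacterial descent, ran the other way in fold, with 44, 51 and 50 fragments and folds of 8.15, 11.5 and 12.6. Mrpl16 showed how the local background enters the fold: PB115 and PB119 had 49 and 55 fragments but folds of 11.2 and 5.81, with backgrounds of 1.34 and 4.03 times the genome-wide level.

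**Figure D4:**
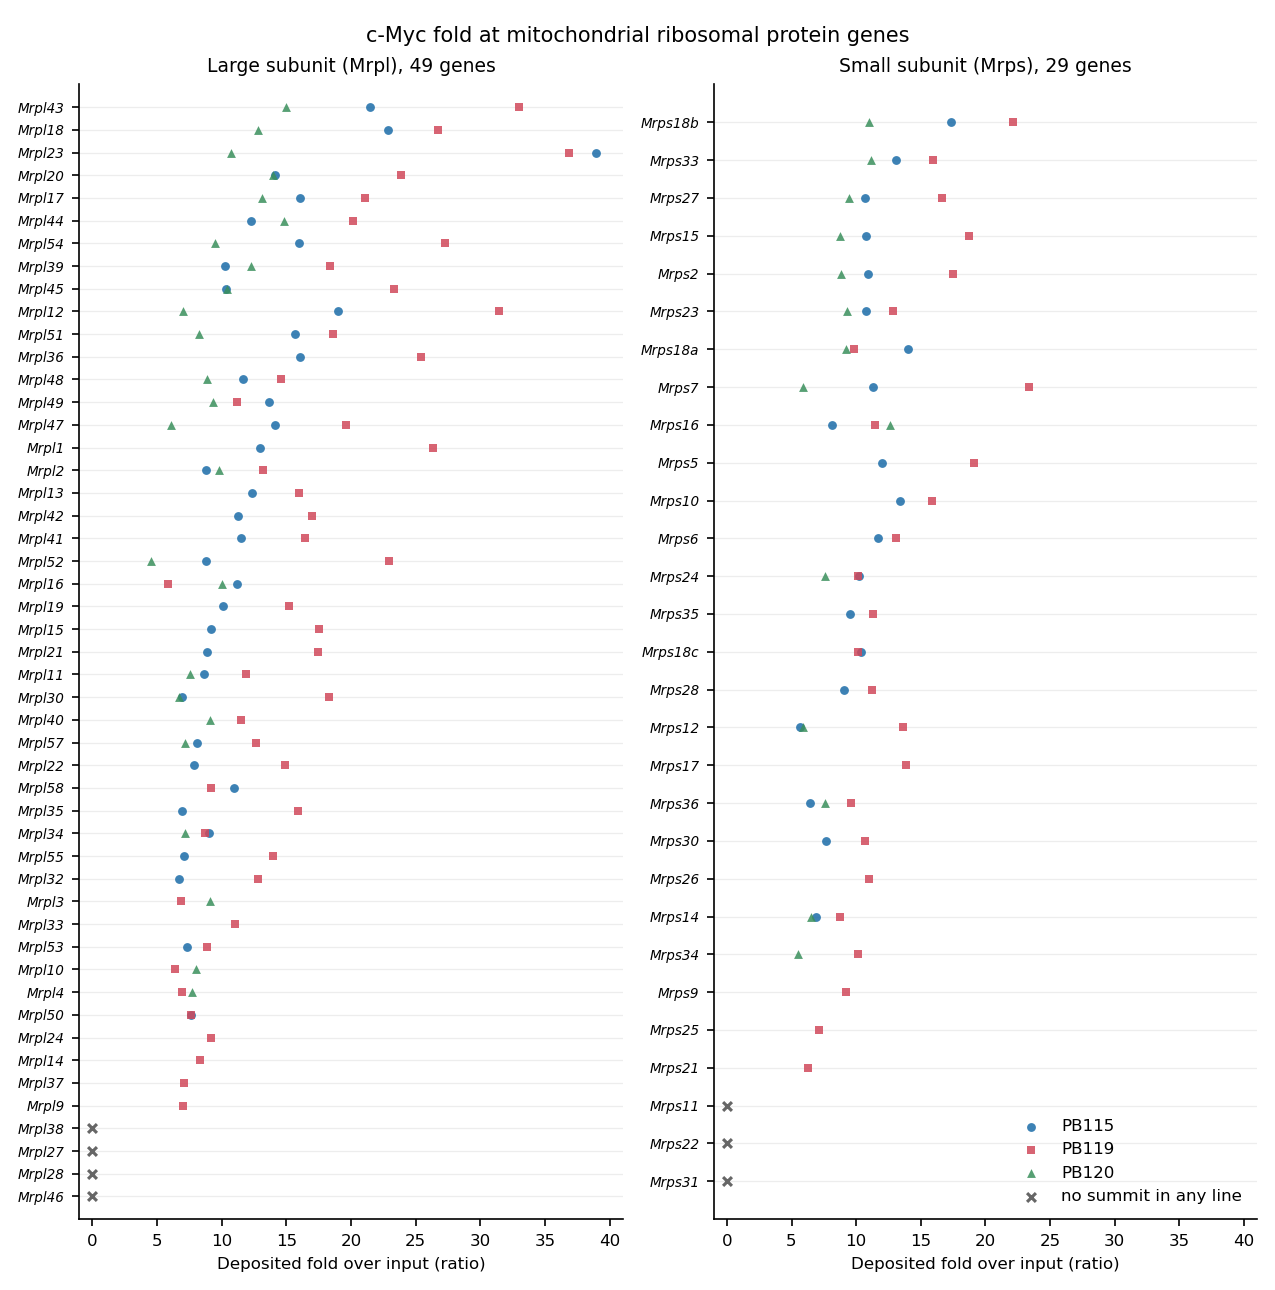
Authors' fold at the best summit of each of the 78 mitochondrial ribosomal protein genes, by line. A line without a summit at a gene has no point. A grey cross, which is not a fold, marks genes without a summit in any line. PB119 had a summit at 71 genes, with folds from 5.81 to 36.9, and the genes with a summit in PB115 or PB120 all had one in PB119.

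Among the 22 genes with a summit in PB115 and PB119 but not PB120, several had high folds. Mrpl1 had 91 and 112 fragments with folds of 13.0 and 26.4 in PB115 and PB119. Mrpl36, a zinc-binding protein in bacteria, had 81 and 108 with folds of 16.0 and 25.4, and Mrps5 had 65 and 84 with folds of 12.01 and 19.1. All of them had the higher fold in PB119, the value by which they were picked. The nearest listed summit in PB120 was 2942081 bp from Mrpl1, 271788 bp from Mrpl36 and 2715 bp from Mrps5. Mrpl1 and Mrpl36 were thus far from any PB120 peak, and Mrps5 was closer to one.

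The other 9 of the 12 genes of highest fold in this class ranged from 14.9 to 17.5 in PB119 and from 6.95 to 13.4 in PB115. In the order PB115 and PB119, the folds were 9.19 and 17.5 at Mrpl15, 8.88 and 17.4 at Mrpl21, and 11.3 and 17.0 at Mrpl42. They were 11.5 and 16.4 at Mrpl41, 12.3 and 16.0 at Mrpl13, and 13.4 and 15.9 at Mrps10. They were 6.95 and 15.9 at Mrpl35, 10.1 and 15.2 at Mrpl19, and 7.82 and 14.9 at Mrpl22. Each of these genes had the higher fold in PB119. The 12 were picked by their highest fold, which was the PB119 value at each, so this order came with the choice. The rest of the class were Mrpl32, Mrpl50, Mrpl53, Mrpl55, Mrpl58, Mrps6, Mrps18c, Mrps28, Mrps30 and Mrps35. Of this rest, Mrps18c (10.38 and 10.13), Mrpl58 (10.98 and 9.148) and Mrpl50 (7.642 and 7.603) had the higher fold in PB115. The others had it in PB119. Mrpl58 encodes a peptidyl-tRNA hydrolase that became part of the ribosome.

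PB119 and PB120 without PB115 had summits at Mrpl3, Mrpl4, Mrpl10, Mrpl40 and Mrps34. Mrpl10, the base of the stalk, had folds of 6.36 and 8.03 on 33 and 27 fragments in PB119 and PB120. Mrpl3, next to the peptidyl transferase centre in bacteria, had folds of 6.85 and 9.12 on 43 and 33 fragments. All 5 had at most 50 fragments in PB119, below the median of 57 over the genes with a summit there. PB119 alone had a summit at Mrpl9, Mrpl14, Mrpl24, Mrpl33, Mrpl37, Mrps9, Mrps17, Mrps21, Mrps25 and Mrps26, with values such as a fold of 13.8 on 55 fragments at Mrps17 and 9.23 on 32 at Mrps9.

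No line had a summit at 7 genes, namely Mrpl27, Mrpl28, Mrpl38, Mrpl46, Mrps11, Mrps22 and Mrps31. Mrpl27 reaches towards the peptidyl transferase centre in bacteria, and Mrps11 lies at the platform of the small subunit. Mrpl38 had a peak just beyond the window, 1230, 1191 and 1195 bp from the gene, with folds of 32.9, 46.9 and 9.27. That summit lay within 1000 bp of Trim65. Mrps31 had its nearest summits 3494 to 3531 bp away and Mrpl28 3128 bp away in PB115. The summits nearest to Mrpl27, Mrpl46, Mrps11 and Mrps22 were 15177 bp or more away. The 7 genes thus included both near neighbours of peaks and genes far from any.

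The window decided few other genes. The counted summit farthest outside a gene was that of Mrpl41, 863 bp from the gene in PB119 and 859 bp in PB115. Just outside lay a PB115 summit 1070 bp from Mrpl40 and PB120 summits 1111 bp from Mrpl58 and 1528 bp from Mrpl22. Mrpl2 and Mrpl58 each owed 1 value to a peak at the other end of the gene: the best PB119 summit of Mrpl2 was 4325 bp after its start, near Cul7, and the best PB115 summit of Mrpl58 lay 698 bp beyond its far end. Summits inside the gene and over 1000 bp from both ends were the best ones at Mrps2, Mrps23 and Mrpl18 in every line where they were found, at Mrpl22 in PB115 and PB119, at Mrpl4 in PB119 and PB120, at Mrpl24 in PB119 and at Mrpl23 in PB120. Several of these lay close to another listed start of the gene, as at Mrps2, where the summits were 9 to 31 bp before it.

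The summits of these genes clustered at the starts. A listed start in RefSeq was at hand for 50, 63 and 36 of the genes with a summit. The best summit lay within 250 bp of it at 40 (80%), 50 (79.4%) and 30 (83.3%) of them, against 59.1%, 59.9% and 64.0% of coding genes with a summit. The median distance was 54, 77 and 62.5 bp, against 167.5, 165 and 135 bp over coding genes. In PB115 the best summit lay over 1000 bp from both ends at 4 of 56 genes here, against 1337 of 6309 coding genes. Coding genes were also longer, at a median of 17169 bp against 7690 bp. The part of gene length in the distance from starts was not tested. Summits fell on both sides of the start, 44%, 47.6% and 30.6% of them after it. Both subunits showed this, with 75%, 75% and 78.3% of large subunit summits and 88.9%, 87.0% and 92.3% of small subunit summits within 250 bp.

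**Figure D5:**
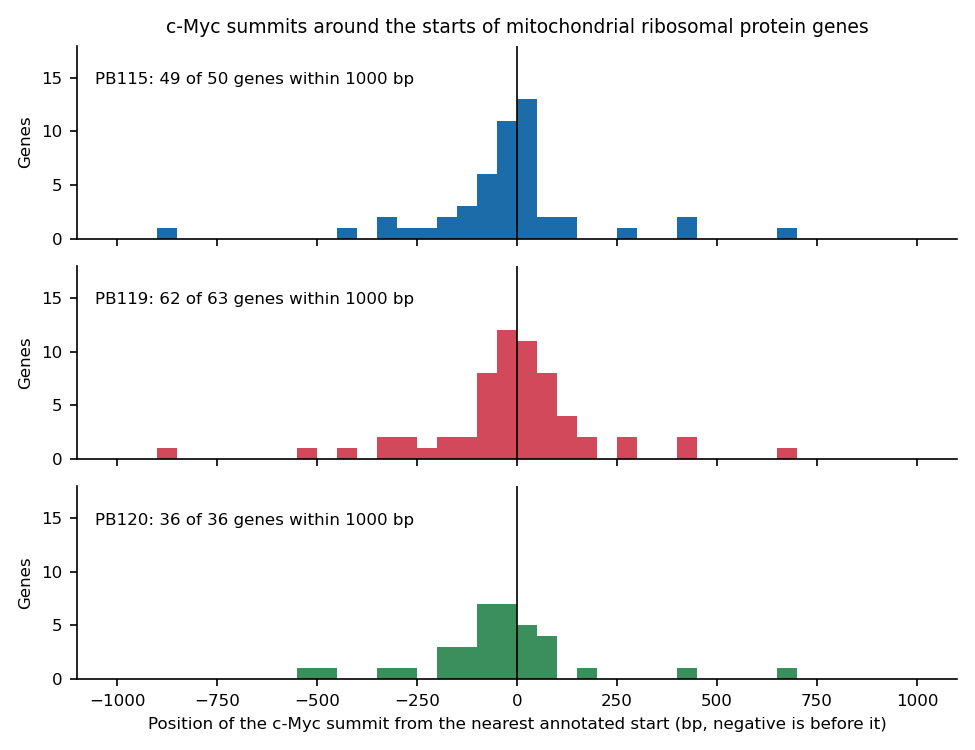
Distance (bp) of the best summit from the nearest listed start, by line, negative before the start and positive after it, for mitochondrial ribosomal protein genes. The summits crowd around 0, with median distances of 54, 77 and 62.5 bp.

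Many of these summits lay near another gene as well. The best summit was also within 1000 bp of a second coding gene at 27, 32 and 21 genes (48.2%, 45.1% and 53.8%), against 28.2%, 25.9% and 29.0% of all coding genes with a summit. Several neighbours also work in mitochondria or translation: Twnk, the mitochondrial DNA helicase, beside Mrpl43; Sars2, the mitochondrial seryl-tRNA synthetase, beside Mrps12; Ndufb5, a subunit of complex I, beside Mrpl47; and Fau, which encodes a cytosolic ribosomal protein fused to a ubiquitin-like one, beside Mrpl49. Others do not, such as Hgs beside Mrpl12, Rab6a beside Mrpl48 and Ncapd2 beside Mrpl51. At these genes a summit cannot be assigned to one gene of the pair. No summit served 2 of the 78 genes. The remaining genes with a second gene at their summit in every line were Mrpl2, Mrpl18, Mrpl30, Mrpl34, Mrpl44, Mrpl54, Mrpl57, Mrps7, Mrps16, Mrps18b and Mrps27. Those with one in 1 or more lines but not all were Mrpl10, Mrpl13, Mrpl14, Mrpl21, Mrpl32, Mrpl37, Mrpl40, Mrpl41, Mrpl50, Mrpl53, Mrps5, Mrps6, Mrps18c and Mrps34.

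Fragments at the same region were compared between lines per ChIP tag. Between PB115 and PB119, 54 of the genes shared a region, and the 95% interval of the ratio held 1 at 52 of them. Of coding genes that shared a region, 8.44% had an interval below 1 and 0.0522% one above. The ratio lay below 1 at Mrpl43 (0.765, 0.599 to 0.976) and Mrpl55 (0.654, 0.425 to 0.995). Between PB120 and PB119, 38 genes shared a region, and the interval lay below 1 at 12 (31.6%) and above 1 at 1 (2.63%). Coding genes that shared a region stood at 35.5% and 3.06%, so the shares here are close to the background. Between PB120 and PB115, 34 genes shared a region, with 7 intervals below 1 (20.6%) and 1 above (2.94%), against 20.8% and 5.17% of coding genes. These intervals were not adjusted for the number of genes. The lowest ratios of PB120 to PB119 were 0.360 at Mrpl54 (0.239 to 0.531), 0.381 at Mrpl12 (0.263 to 0.542) and 0.413 at Mrps7 (0.273 to 0.609). The other 9 were Mrps2, Mrpl52, Mrpl23, Mrpl51, Mrpl18, Mrps15, Mrpl43, Mrpl44 and Mrpl49, with ratios from 0.465 to 0.684.

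All coding genes showed ratios of similar size. Over the genes with a summit in every line the median ratio of PB120 to PB119 was 0.803, against 0.757 for all such coding genes, and that of PB115 to PB119 was 0.871 against 0.864. How well each immunoprecipitation worked and how much c-Myc was bound cannot be told apart with 1 library per line. Across the 34 genes, Spearman's rho of the folds was 0.64 between PB115 and PB119, 0.50 between PB115 and PB120 and 0.29 between PB119 and PB120. Over coding genes with a summit in every line it was 0.77, 0.40 and 0.41. These are descriptions across genes, which share libraries and background and are not independent.

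Of 7 genes with more fragments per tag in PB120 than in PB119, Mrpl34 was the only one whose interval lay above 1. It encodes one of the smallest proteins of the large subunit and lies on chromosome 8, at positions 71464926 to 71465753, beside Abhd8. Its fragments were 49, 53 and 78, and the ratio of PB120 to PB119 was 1.86 (1.29 to 2.68). Its folds were 9.05, 8.70 and 7.13, with a background in PB120 of 5.54 times the genome-wide level. The median background at coding genes with a summit was higher on chromosome 8 than on the other chromosomes in every line, at 1.87 against 1.52, 1.70 against 1.49 and 2.27 against 1.75. The part of this background in the fragment count at Mrpl34 was not tested.

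E-box forms were about as common in these promoters as elsewhere, and sat mainly at genes with a summit in every line. Promoters here are 250 bases before to 50 after a listed start, available for 69 of the 78 genes. Letters were searched on both strands, and matches describe sequence only. The E-box CACGTG was present in 5 promoters (7.25%), against 7.75% of 17492 coding promoters, at Mrpl2, Mrpl20, Mrpl36, Mrpl37 and Mrps18c. CACGCG was present in 12 (17.4%) against 12.01%, and CATGTG in 4 (5.80%) against 11.7%. Any of the 3 forms was present in 21 (30.4%) against 28.6%.

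By number of lines, any E-box form was present in 15 of 33 promoters of genes with a summit in all lines (45.5%), in 6 of 30 with a summit in 1 or 2 lines (20%) and in 0 of 6 with none. Coding genes with a summit in every line stood at 43.7%, so the share at the 33 genes is that of other genes with such summits. CACGCG made up most of it, at 11 of the 33 (33.3%), against 26.6% of coding genes with a summit in every line. CACGTG was present at 2 of the 33 (6.06%), against 15.7%. The median distance from the summit to the nearest form in the promoter was 66, 73 and 56 bp, over 18, 21 and 15 genes with both. At 8, 9 and 7 of them it was within 50 bp, as at Mrpl43, Mrpl39 and Mrpl45 printed above. At Mrpl20, the only CACGTG in the promoter lay 683 to 691 bp from the summit. That summit was outside the promoter, and the sequence under it was not searched.

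Other known promoter elements stood above the coding average. CCGGAAGT, a core bound by ETS factors, was present in 12 of 69 promoters (17.4%), against 5.19% of coding promoters and 10.8% of those with a summit in every line. GCGCATGC, the core of the site of NRF1, a regulator of nuclear genes for mitochondrial proteins, was present in 8 (11.6%), against 3.57% and 7.69%. AAGATGGC, a YY1 site, was present in 12 (17.4%), against 3.22% and 6.25%. Some of these lie in the printed promoters: CCGGAAGT in those of Mrpl43 and Mrps22, and GCGCATGC in those of Mrpl39 and Mrps18b. No match to these elements overlapped an E-box form in the 69 promoters. Median GC was 59.3% for the 33 genes with a summit in every line. It was 57.8% for the 30 with a summit in 1 or 2 lines and 54% for the 6 with none. Coding promoters with a summit in every line were richer in GC than the 33, at 62.7%, and all coding promoters stood at 56.3%.

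Other genes of mitochondrial translation also had summits at most of their members in PB115 and PB119. The mitochondrial ribosomal proteins with other names, Dap3, Ptcd3, Chchd1, Aurkaip1 and Gadd45gip1, had summits at 5, 5 and 2 of 5 genes (100%, 100% and 40%). Assembly factors of the mitochondrial ribosome had them at 15, 20 and 7 of 21 genes (71.4%, 95.2% and 33.3%), and translation factors at 10, 13 and 7 of 14 (71.4%, 92.9% and 50%). In PB120 the assembly factors stood below the 50% of the mitochondrial ribosomal protein genes. The cytosolic ribosomal protein genes stood higher, at 73, 76 and 63 of 77 genes, with a summit in every line at 63 (81.8%) against 34 of the 78 mitochondrial ones (43.6%). Their median folds were 13.7, 17.8 and 9.27, against 10.8, 13.6 and 9.07 for the mitochondrial ribosomal proteins. The medians were thus apart in PB115 and PB119 and close in PB120. The gap itself was not tested.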

How the data were processed

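c-Myc ChIP and input libraries of PB115, PB119 and PB120, 1 of each kind per line, were grouped by their titles. Per the submitters' processing notes, Bowtie, SAMtools and MACS2 were used with the mouse build mm10. Per the file headers, peaks were called with MACS 2.1.0.20140616, per library against the input of the same line at a p-value cutoff of 1e-10. Versions of the aligner tools were not given in the sources used here.

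The deposited pileup is a signal, the number of ChIP fragments over the summit, which the authors had scaled down to input depth. Undoing that scaling with the tag totals in the headers returned whole fragments (tolerance 0.02) for 100% of peaks. The deposited fold is a ratio of pileup to local background with 1 added to both, from which the background was recovered. The deposited −log10 p-value and q-value belong to single peaks, and the p-value served to shorten lists. A library without replicate or added chromatin standard fixes no common scale between lines, so folds were compared by percentile within a line. Keeping 1 tag per position can flatten the strongest peaks.

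Genes and ends came from RefSeq GRCm38.p6, and starts from its promoter table. Peaks of different lines that overlapped by 1 bp or more were merged. Fragment intervals are exact Poisson and ratio intervals exact, both at 95%, and cover counting error only. The computations were tested on simulated data and used Python 3.11.15, pandas 2.3.3, NumPy 2.4.6, SciPy 1.17.1 and matplotlib 3.10.9.

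Genes named with values were the 12 of highest mean percentile (a line without a summit counting as 0), the 12 of highest fold among those with a summit in 1 or 2 lines, those without a summit, those near the window limit and those with a summit in the gene body alone. Others were named as examples after their values were seen. The members and lists were chosen with earlier results of these data known. Alternatives were windows of 500 and 5000 bp, ends only, any base of the peak, a p of 1e-20, equal list length, subunits by structure and a reciprocal overlap of 50%.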

Additional observations from a re-analysis of the deposited data

How the results depend on the processing

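Of 109 recomputed counts and medians, 106 stayed within 1.5 times their reported value or, for medians, within the order-statistic interval of the median over its genes. The others were counts. At a p of 1e-20, 6 small subunit genes had a summit in PB120, against 14. At equal list length, 16 small subunit genes had one in PB119, against 26. With a reciprocal overlap of 50%, 16 regions were shared by all lines, against 34. The cause was not tested beyond the fewer or narrower peaks each setting allows. The fold of a peak is a deposited value, so a setting could change the fold of a gene only by picking another peak. Of 213 folds at the leading genes, 212 held, which is no test of their size. That of Mrpl18 in PB119 was 6.80 with ends only. That setting gave no summit, and so no fold, at Mrpl18 in PB115 and PB120 and at Mrpl23 in PB120. At a p of 1e-20, 48, 65 and 27 of the 78 genes had a summit in PB115, PB119 and PB120, against 22.3%, 36.4% and 13.8% of coding genes. The weakest summits rested on 24, 19 and 21 fragments in PB115, PB119 and PB120, and PB120 had the fewest tags. A site below that level is not in these lists. No paired analysis was possible because each line had 1 ChIP library and the labels give no replicate numbers.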
